A study of Mus musculus with 2 samples.

Results

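The genes described here encode the kinase Aurora A, its activator TPX2 and the proteins that work with them to build the mitotic spindle. The group was set by name, with earlier results of these data known, and holds 10 genes: Aurka, Tpx2, Bora, Plk1, Hmmr, Nusap1, Prc1, Dlgap5, Ckap5 and Tacc3. All 10 were found by symbol among the 47719 genes of the table, and all 10 were among the 12325 genes expressed at 1 CPM or more (counts per 1000000 reads of a depth-scaled library) in at least 1 library. RNA had been sequenced from 2 keratinocyte cultures, 1 per genotype (Pp6fl/fl as the control, K5.Pp6fl/fl as the deleted line), both from mice of C57BL/6J background aged 8 weeks, with cells from the tail grown for 3 days. Pp6, named Ppp6c in the table, codes for the catalytic part of protein phosphatase 6, PP6 for short. Both genotypes carry the floxed allele. In K5.Pp6fl/fl the keratin 5 promoter of basal keratinocytes drives the recombinase that removes it, so cells in which that promoter was never active keep the gene. The sources used here do not say how many mice were pooled into a culture. Since each genotype has 1 library, differences between cultures of 1 genotype are unknown: no p-value was computed, and every interval (95%) covers counting error only.

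Aurora A is a serine/threonine kinase that becomes active when its activation loop is phosphorylated. TPX2 binds it, holds that loop in the active form and carries the kinase to spindle microtubules, and PP6 is the phosphatase that removes the phosphate from Aurora A in the complex with TPX2. In the epidermis these proteins work in the dividing basal layer. A transcript count is no measure of phosphorylation or of kinase activity, so the values below are levels of messenger RNA alone.

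Each of the 10 transcripts was higher in K5.Pp6fl/fl than in Pp6fl/fl, by less than 2-fold. The folds of depth-scaled counts, K5.Pp6fl/fl over Pp6fl/fl, ran from 1.23 for Ckap5 to 1.70 for Nusap1, with a median log2 ratio of 0.45 against -0.01 over all expressed genes. Of expressed genes 46.8% had a log2 ratio above 0. Each of the 10 intervals lay above 1, as did 16.6% of those of expressed genes, with 17.4% below 1. A fold rule was used to count genes, which asked for a difference of at least 25% (after adding 0.5 CPM to both values, taken as 25% more in K5.Pp6fl/fl or 25% more in Pp6fl/fl) and an interval that excluded 1. Of the members 9 passed it as higher and 0 as lower, where 7.62% of expressed genes passed as higher and 4.09% as lower. At 1.5-fold 3 members passed as higher, Aurka, Hmmr and Nusap1, and 0 as lower, against 3.47% and 1.26% of expressed genes. At 2-fold 0 members passed in either direction, against 0.811% as higher and 0.195% as lower. The members together held 11349 reads, or 587 CPM, in Pp6fl/fl and 14022 reads, or 807 CPM, in K5.Pp6fl/fl. That is a fold of 1.38 (1.34 to 1.41) for the sum. In RNA from a whole culture, more dividing cells and more transcript per dividing cell cannot be told apart, and the share of cells in mitosis was not measured.

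**Figure D1:**
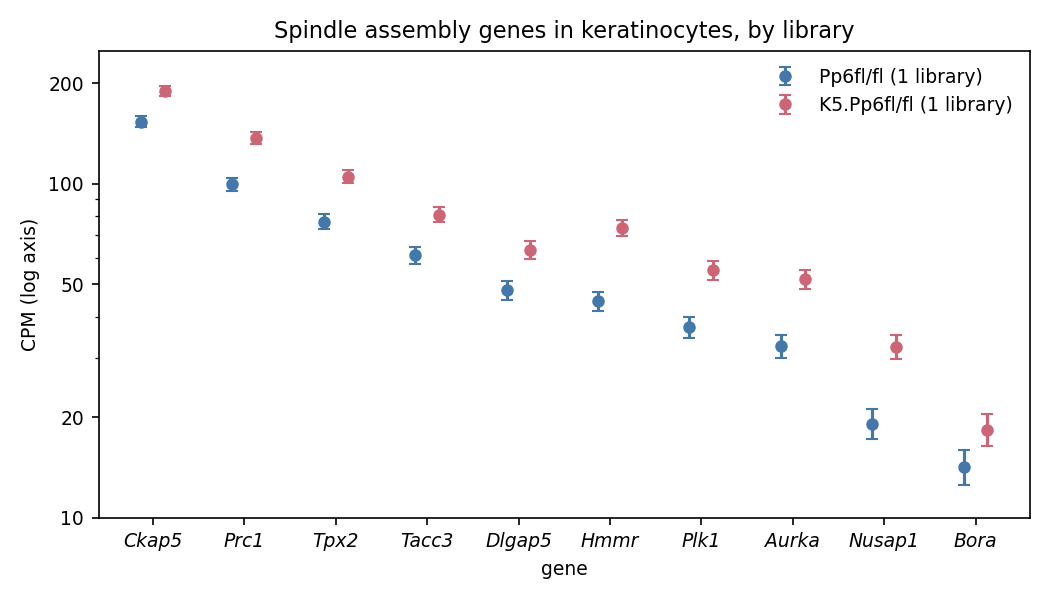
Depth-scaled counts in CPM (log axis) of the 10 spindle assembly genes in the Pp6fl/fl library and the K5.Pp6fl/fl library; points are single libraries and bars are exact Poisson intervals (95%). For each gene the K5.Pp6fl/fl point is the higher one, from 18.4 CPM for Bora to 189 CPM for Ckap5, and its bar does not overlap that of Pp6fl/fl.

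The libraries were of similar depth, 19374767 reads (Pp6fl/fl) and 17361259 reads (K5.Pp6fl/fl). Ppp6c itself was at 55.5 CPM (1074 reads) in Pp6fl/fl and at 40.7 CPM (707 reads) in K5.Pp6fl/fl. The fold was 0.733 (0.665 to 0.806) by counts and 0.548 by FPKM (counts per kilobase and depth), which puts the lower level on the side of the K5.Pp6fl/fl label. The table has no values per exon, so reads outside the deleted part count here too. The other 6 PP6 subunits all had intervals that included 1. Their folds ran from 0.798 for the regulatory subunit Ppp6r2 to 1.07 for the ankyrin repeat subunit Ankrd44, with the most abundant, Ankrd52 and Ppp6r1, at 1.02 and 0.993. The 11 keratinocyte markers were all expressed and summed to 67078 CPM in Pp6fl/fl and 63757 CPM in K5.Pp6fl/fl, most of it from the basal keratins Krt14 (30702 and 28559 CPM) and Krt5 (17801 and 17100 CPM). Of the 11 intervals 6 lay below 1 and 3 above it, against 17.4% and 16.6% of those of expressed genes. Abundant markers had narrow intervals that excluded 1 at small folds, such as 0.930 for Krt14 and 1.02 for Dsp. The folds ran from 0.770 (0.658 to 0.898) for Krt10, a keratin of differentiating cells, to 1.52 (1.11 to 2.08) for the basal keratin Krt15, from 72 and 98 reads. Trp63, the basal transcription factor p63, was at 0.776 (0.759 to 0.793). Of 8 immune markers 6 were at 0 in both libraries, and the sums were 0.155 and 0.403 CPM. Fibroblast markers summed to 3.57 and 2.99 CPM (Lum at 0), those of vessels and mural cells to 16.9 and 14.9 CPM (Des and Rgs5 at 0), nearly all of it from Acta2, and those of Merkel cells to 9.41 and 12.6 CPM (Chga and Krt20 at 0). The Merkel cell sum, also higher in K5.Pp6fl/fl, came nearly all from the keratins Krt8 (3.36 and 5.06 CPM) and Krt18 (6.05 and 7.42 CPM). Summed melanocyte markers were higher in K5.Pp6fl/fl, as the spindle genes were. The 8 genes summed to 14.8 and 22.1 CPM, with none at 0, and Tyrp1 and Pmel, 2 pigment cell genes, went from 2.48 to 4.95 and from 2.17 to 4.83 CPM. Mitf, the most abundant, stood at 7.03 and 6.33 CPM. The part of pigment cells in the values below was not tested.

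Many late cell cycle genes carry CCAAT boxes, which bind the factor NF-Y, and the cell cycle homology region (CHR), which binds the MuvB complexes that regulate these genes. Because the members were higher together, the 250 bases before their starts were searched on both strands. The 4 shown are those of members with at least 100 bases next to the start that are free of protein-coding exons, and each holds a match. They come from RefSeq (GRCm38.p6), are written 5′ to 3′ on the gene's strand up to the base before the start, and leave out any exon of a protein-coding gene. Capitals mark CCAAT (or its reverse, ATTGG) and the CHR letters TTTGAA (or the reverse, TTCAAA).
Hmmr, chr11:40733438-40733666, minus strand: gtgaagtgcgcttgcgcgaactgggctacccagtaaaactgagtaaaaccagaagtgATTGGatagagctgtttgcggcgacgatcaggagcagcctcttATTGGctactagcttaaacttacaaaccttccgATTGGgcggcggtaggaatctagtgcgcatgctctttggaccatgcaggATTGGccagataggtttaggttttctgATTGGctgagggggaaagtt
Aurka, chr2:172370571-172370680, minus strand: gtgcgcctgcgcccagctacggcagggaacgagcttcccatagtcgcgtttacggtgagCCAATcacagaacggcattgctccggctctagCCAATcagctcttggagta
Plk1, chr7:122159185-122159434, plus strand: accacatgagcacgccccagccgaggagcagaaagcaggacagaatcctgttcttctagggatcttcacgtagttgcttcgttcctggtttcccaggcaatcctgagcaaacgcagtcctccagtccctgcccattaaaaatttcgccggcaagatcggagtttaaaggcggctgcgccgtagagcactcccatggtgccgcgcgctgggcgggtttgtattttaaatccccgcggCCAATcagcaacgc
Ckap5, chr2:91526512-91526761, plus strand: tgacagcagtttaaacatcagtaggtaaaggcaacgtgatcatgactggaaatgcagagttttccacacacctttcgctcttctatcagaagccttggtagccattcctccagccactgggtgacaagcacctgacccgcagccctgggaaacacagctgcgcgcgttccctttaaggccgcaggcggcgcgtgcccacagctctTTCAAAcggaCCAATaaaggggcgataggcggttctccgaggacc
The Hmmr stretch holds CCAAT 5 times, each time on the opposite strand, that of Aurka holds it 2 times and that of Plk1 1 time, 14 to 10 bases before the start. In Ckap5 a CHR match lies 45 to 40 bases before the start and a CCAAT 35 to 31 bases before it. The Plk1 stretch overlaps exons of Gm15489, a gene on the opposite strand with 3 reads in each library.

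RefSeq promoters were matched for 7 members: Aurka, Plk1, Hmmr, Nusap1, Prc1, Ckap5 and Tacc3. CCAAT was found in 5 of the 7, all but Nusap1 and Tacc3, and in 33.8% of the 32851 promoters in the table. A CHR match (TTTGAA or TTCGAA, either strand) was found in 2 of the 7, Ckap5 and Prc1, and in 17.1% of all promoters. Prc1 had windows before different starts, and its CHR match lay only in the later window, which includes 26 bases of a Prc1 exon. A member was counted if any of its windows held a match, while the shares are over single promoters. The E2F letters TTNNCGC, also on either strand, were found in 3 of the 7, Hmmr, Prc1 and Tacc3, and in 17% of all. No match of one kind overlapped a match of another in these windows. These are matches of letters and not measured binding. Nusap1, with no match of any of the kinds, had the highest fold and Ckap5, with CHR and CCAAT, the lowest. All 250 bases of the Nusap1 window lie in exons of Oip5 on the opposite strand. Those of Tacc3 and Prc1 likewise lie in exons of Tmem129 and Rccd1. Whether the matches bear on the folds was not tested.

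The kinases and their activators open the pathway. Aurka, the Aurora A gene (ENSMUSG00000027496), was counted 631 times in Pp6fl/fl (exact Poisson interval 583 to 682) against 900 times in K5.Pp6fl/fl (842 to 961). These are 32.6 and 51.8 CPM, a fold of 1.59 (1.43 to 1.76). Tpx2 (ENSMUSG00000027469), whose protein is the activator and spindle anchor of Aurora A, had 1489 reads against 1824, or 77.0 and 105 CPM. Its fold of 1.36 (1.27 to 1.46) was smaller than that of Aurka, and the ratio of these 2 folds was 1.16, with an interval (1.03 to 1.32) that excluded 1. On the FPKM scale, which divides by gene length and so allows levels of different genes to be compared, Tpx2 stood at 1.08 times Aurka in Pp6fl/fl and at 0.949 times Aurka in K5.Pp6fl/fl.

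Plk1 (ENSMUSG00000030867) encodes Polo-like kinase 1, which drives entry into mitosis and matures the centrosomes. Its 719 reads in Pp6fl/fl and 958 in K5.Pp6fl/fl correspond to 37.2 and 55.1 CPM. The fold was 1.48 (1.34 to 1.64). Bora (ENSMUSG00000022070), whose protein lets Aurora A phosphorylate and switch on PLK1, was the least abundant member, with 274 reads (243 to 308) against 319 (285 to 356). Its 14.2 and 18.4 CPM give a fold of 1.30 (1.10 to 1.53), the widest interval of the 10 on a log scale. The folds of Plk1 and Bora could not be told apart at this depth, with a ratio of 1.14 (0.944 to 1.39).

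TACC3 and CKAP5 act together on microtubules. Aurora A phosphorylates TACC3, which then binds clathrin and recruits CKAP5, a polymerase that lengthens microtubules, to the fibres that pull on kinetochores. Tacc3 (ENSMUSG00000037313) had 1182 reads against 1404, which is 61.1 CPM against 80.8 and a fold of 1.32 (1.22 to 1.43). Ckap5 (ENSMUSG00000040549) had the most reads of the group, 2969 and 3284. Its 153 and 189 CPM give a fold of 1.23 (1.17 to 1.29), the lowest of the 10 and the only one short of the 25% rule. By FPKM Tacc3 stood at 1.45 times Ckap5 in Pp6fl/fl and 1.53 times in K5.Pp6fl/fl, and their folds had a ratio of 1.07 (0.979 to 1.18).

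Hmmr and Nusap1 had the highest folds. Hmmr (ENSMUSG00000020330) encodes the hyaluronan-mediated motility receptor, which inside dividing cells binds TPX2 and keeps it at the spindle poles. Its reads numbered 860 in Pp6fl/fl and 1284 in K5.Pp6fl/fl. Scaled to depth these are 44.4 and 73.9 CPM, 1.66-fold apart (1.52 to 1.81). Against its partner Tpx2 the ratio of folds was 1.22 (1.09 to 1.36). Nusap1 (ENSMUSG00000027306), which encodes a protein that bundles microtubules near chromatin, had 370 and 564 reads. Its 19.1 and 32.4 CPM give a fold of 1.70 (1.49 to 1.94). Among expressed genes 249, or 2.02%, had a higher log2 ratio than Nusap1, and 266, or 2.16%, a higher one than Hmmr.

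Dlgap5 and Prc1 act on bundled microtubules. Dlgap5 (ENSMUSG00000037544) encodes HURP, an Aurora A substrate that stabilises kinetochore fibres, and stood at 48.1 CPM (930 reads) in Pp6fl/fl and 63.4 CPM (1102 reads) in K5.Pp6fl/fl. Its fold was 1.32 (1.21 to 1.44). Prc1 (ENSMUSG00000038943) encodes the crosslinker of antiparallel microtubules that forms the central spindle in anaphase. It stood at 99.5 CPM (1925 reads) and 137 CPM (2383 reads), with a fold of 1.38 (1.30 to 1.46). Both lay below Aurka, with ratios of folds of 1.20 (1.05 to 1.38) for Aurka over Dlgap5 and 1.15 (1.02 to 1.30) for Aurka over Prc1.

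**Figure D2:**
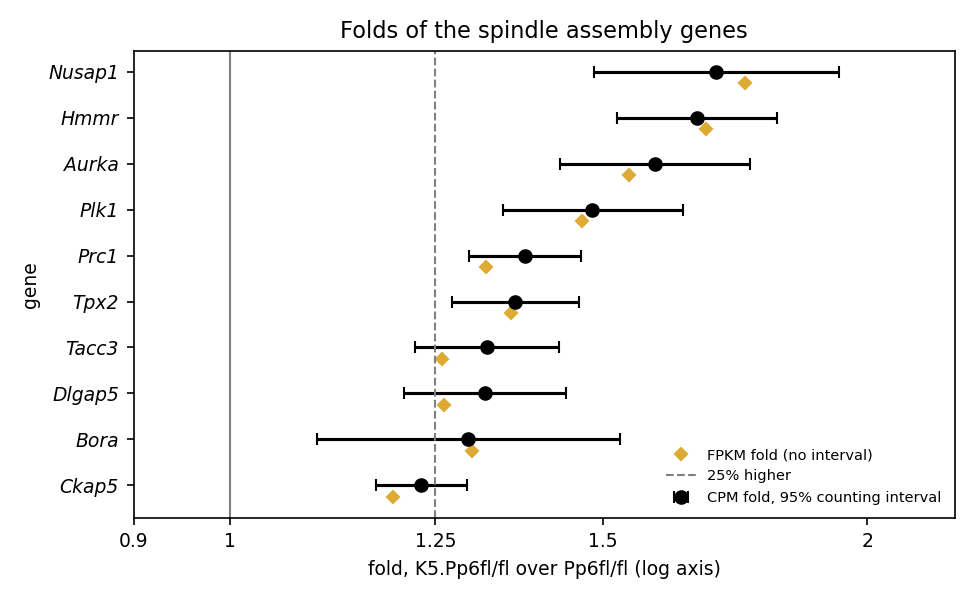
Folds of the 10 genes, K5.Pp6fl/fl over Pp6fl/fl (log axis), by CPM with a counting interval (95%, black) and by the deposited FPKM (diamonds, no interval); the dashed line marks 25% more in K5.Pp6fl/fl. All 10 intervals lie right of 1, and the order runs from Nusap1 (1.70) to Ckap5 (1.23).

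Sorted by fold the members were Nusap1, Hmmr, Aurka, Plk1, Prc1, Tpx2, Tacc3, Dlgap5, Bora and Ckap5. None of the 9 neighbouring pairs in this order differed beyond counting error. Of all 45 pairs 21 did, and each of these had Nusap1, Hmmr or Aurka as the higher gene or Ckap5 as the lower one. The widest gap was that of Nusap1 over Ckap5, a ratio of folds of 1.38 (1.20 to 1.59). The intervals of pairs were not adjusted for their number.

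By level per length the order was another one. Prc1 had the highest FPKM in both libraries, 46.5 in Pp6fl/fl and 61.4 in K5.Pp6fl/fl, and Bora the lowest, 5.97 and 7.77. The span from lowest to highest was 7.79-fold and 7.91-fold. Tacc3 followed Prc1 at 36.8 and 46.3 FPKM, and Dlgap5 was next at 32.8 and 41.3 FPKM. The middle of the order was close in Pp6fl/fl, with Ckap5 at 25.4, Tpx2 at 23.4, Aurka at 21.6 and Plk1 at 21.0 FPKM. In K5.Pp6fl/fl Aurka stood at 33.4, Tpx2 at 31.7, Plk1 at 30.8 and Ckap5 at 30.4 FPKM, so Ckap5 went from rank 4 to rank 7 and Aurka from rank 6 to rank 4. Hmmr (12.4 and 20.7 FPKM) and Nusap1 (7.04 and 12.3 FPKM) kept ranks 8 and 9. FPKM has no counting interval of its own here, and neighbours in the middle of this order lie within a few FPKM of each other.

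The folds by FPKM were close to those by counts. They ran from 1.19 for Ckap5 to 1.75 for Nusap1, and the same 9 members were at least 25% higher, where by FPKM, without an interval, 12.1% of genes were that much higher and 9.35% that much lower. Tacc3 and Dlgap5 came nearest to the threshold, each at 1.26 by FPKM. In the authors' deposited table the log2 fold changes of the members ran from 0.26 for Ckap5 to 0.80 for Nusap1. The false discovery rates given there ran from 7.64e-19 for Hmmr to 0.0286 for Bora. They compare 1 library with 1 library, and the sources used here do not name the spread assumed for them. The column of that table that marks significant genes reads "no" for all 10.

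**Figure D3:**
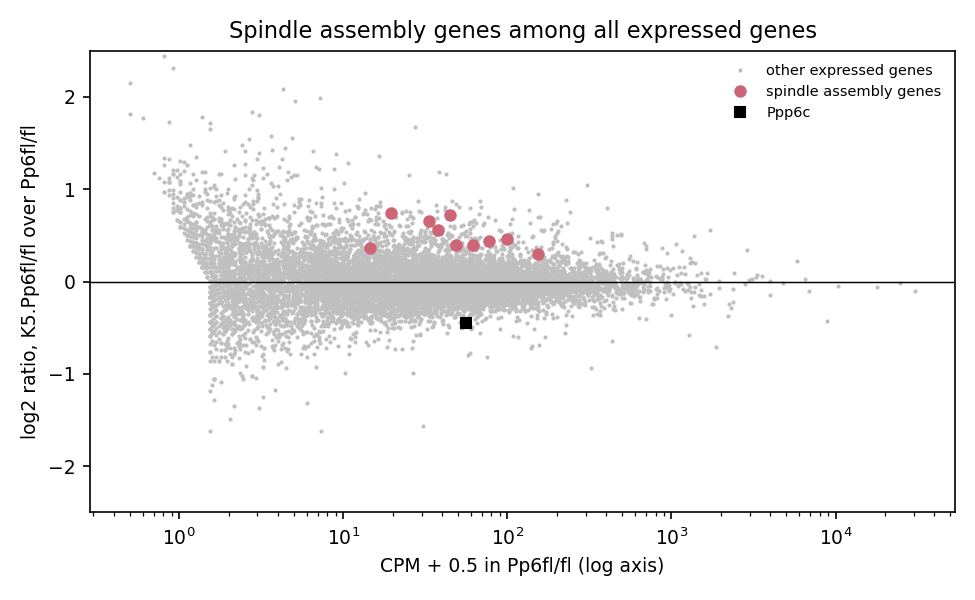
Log2 ratio (CPM + 0.5, K5.Pp6fl/fl over Pp6fl/fl) against level in Pp6fl/fl (log axis) for all expressed genes (grey), the 10 spindle assembly genes (red) and Ppp6c (black square); 4 genes lie outside the vertical axis. The spindle genes sit between 0.30 and 0.75, in the upper part of the cloud at their levels, and Ppp6c sits at -0.44.

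Because the library kit does not mark strand, reads from exons that overlap on opposite strands cannot be assigned to 1 gene. Prc1 shared 11.1% of its exonic bases with Rccd1, Tacc3 8.14% with Tmem129, Plk1 7.09% with Gm44985 and Nusap1 4.24% with Oip5, all on the opposite strand in GENCODE vM21. Summing the reads of each pair lowered the log2 ratio of Tacc3 from 0.40 to 0.24, below the 25% rule, and that of Nusap1 from 0.75 to 0.55. Prc1 stood at 0.38 and Plk1 at 0.56 as sums, and 8 of the 10 members then passed. A stretch of at most 152 bases in a Dlgap5 transcript matched transcripts of 58 other genes at 95% identity or more, so part of its reads could have come from elsewhere.

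Genes that start close to a member on the opposite strand differed from it in 4 of 5 cases. These pairs were chosen after the overlaps were seen, as protein-coding genes with a start at most 1000 bases from that of a member in GENCODE vM21. The median log2 ratio of expressed genes was -0.01 and 16.6% of their intervals lay above 1, so a difference from a member is not particular to neighbours. How often other genes differ from a member was not counted. Cstf1, a subunit of the factor that cleaves messenger RNA ends, starts 146 bases from Aurka and had 1434 and 1109 reads, a fold of 0.861 (0.795 to 0.932). The ratio of the Aurka fold to it was 1.84 (1.62 to 2.10). Nudcd2, 245 bases from Hmmr, had 940 and 892 reads, a fold of 1.06 (0.963 to 1.16), and the ratio was 1.57 (1.38 to 1.79). Oip5, which encodes a protein of centromere assembly, overlaps the start of Nusap1 and had only 161 and 138 reads, a fold of 0.954 (0.754 to 1.21). The ratio of the Nusap1 fold to it was 1.78 (1.36 to 2.33). Tmem129, a membrane ubiquitin ligase, overlaps the start of Tacc3 and had 602 and 495 reads, a fold of 0.915 (0.811 to 1.03), with a ratio of 1.44 (1.2503 to 1.67). The exception was Mzt1, which encodes a small subunit of the gamma-tubulin ring complex that nucleates microtubules. It starts 88 bases from Bora and had 793 and 855 reads, a fold of 1.20 (1.09 to 1.32), with a ratio of 1.08 (0.891 to 1.31) that did not separate it from Bora. Bora had the fewest reads of the members.

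**Figure D4:**
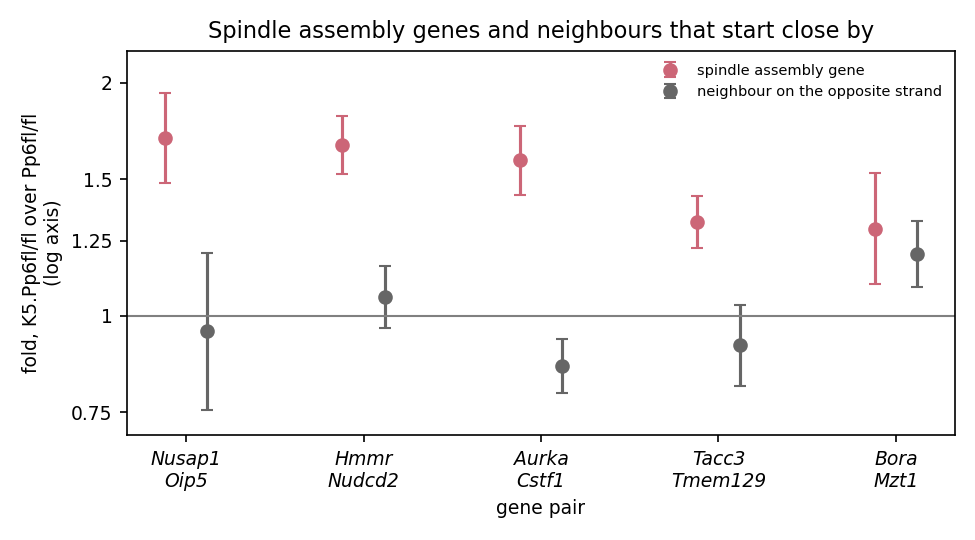
Folds, K5.Pp6fl/fl over Pp6fl/fl (log axis), of 5 spindle assembly genes (red) and of the protein-coding gene on the opposite strand that starts at most 1000 bases away (grey), with counting intervals (95%). The red intervals lie above the grey ones in 4 pairs, and in the pair of Bora and Mzt1 they overlap.

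The other genes of the pathway were followed in lists that leave out the 10 members. The lists too were drawn up with results of these data known, so their counts are a description and no independent support. Closest to the members in median was the list of partners of PRC1 at the central spindle and in cytokinesis. Of its 16 expressed genes 15 had a log2 ratio above 0, against 46.8% of all expressed genes. By the 25% rule 12 passed as higher and 0 as lower, against 7.62% and 4.09%, and the median was 0.42. The kinesin Kif23, which with RACGAP1 forms centralspindlin, had the highest ratio, with 420 and 579 reads and a fold of 1.53 (1.35 to 1.74). Anln, the contractile ring protein anillin, was abundant at 281 and 351 CPM and fell just short of the rule, with a fold of 1.249 (1.20 to 1.30). The other 3 that did not pass were Incenp, Rhoa and Clasp1. Incenp (named after its value was seen), the scaffold of the chromosomal passenger complex, was at 118.7 and 144.5 CPM with a fold of 1.22 (1.15 to 1.29). The GTPase Rhoa, with 330 and 332 CPM, had a fold of 1.01 (0.972 to 1.04), and the plus end protein gene Clasp1 was at 0.949 (0.892 to 1.01).

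In the list of activators, scaffolds and relatives of Aurora A, 18 of 19 genes were expressed and 14 had a log2 ratio above 0. By the rule 7 passed as higher and 0 as lower, with a median of 0.26. This list also held the kinase gene Cdk1, the cyclin genes Ccnb1 and Ccnb2, and the phosphatase genes Cdc25b and Cdc25c. All of these passed as higher, as did Aurkb and Plk3. The activator and scaffold genes Ajuba, Nedd9, Pak1, Cep192, Cep152 and Wdr62 did not pass. Both groups were named after their values were seen. Of all expressed genes 46.8% lay above 0, 7.62% passed as higher and 4.09% as lower. Cdc25c, a phosphatase that switches on CDK1, had the highest fold, 1.72 (1.2499 to 2.38), from 66 and 102 reads. The lowest was that of the centriole protein gene Cep152, at 0.878 (0.768 to 1.003). Ajuba, a LIM protein that can activate Aurora A, was the most abundant, at 480 CPM in Pp6fl/fl and 454 in K5.Pp6fl/fl (0.946-fold, 0.918 to 0.975), and the Polo-like kinase Plk2 was at 1.10 (1.06 to 1.14). Aurkb (picked with its value in view), the kinase of the chromosomal passenger complex and nearest relative of Aurka, had 754 and 881 reads and a fold of 1.30 (1.18 to 1.44). Aurkc, the relative known from germ cells, had 0 reads in both libraries.

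The lists for the building of the spindle from Ran and from microtubule nucleation differed less. Their counts stand against 7.62% of all expressed genes passing as higher and 4.09% as lower. Ran releases spindle factors, TPX2 among them, from importins near chromosomes, and 5 of its 18 genes passed as higher, 0 as lower, with a median of 0.12. The microtubule depolymerising kinesin Kif2c led with a fold of 1.57 (1.40 to 1.76), from 25.7 to 40.3 CPM. Ran itself was at 1.07 (1.04 to 1.10), the importin Kpnb1 at 0.949 (0.927 to 0.971) and the lamin Lmnb2 at 0.895 (0.824 to 0.972). Of 18 genes of augmin and the gamma-tubulin ring complex 0 passed in either direction, and the median was 0.08. Their folds ran from 0.866 (0.798 to 0.940) for Tubgcp6 to 1.20 (1.07 to 1.36) for the augmin subunit Haus3, with Tubg1, gamma-tubulin, at 1.07 (0.998 to 1.15) and Tubgcp2 at 0.914 (0.843 to 0.990). In the centrosome list 2 of 19 genes passed as higher and 1 as lower (7.62% and 4.09% of expressed genes), with a median of 0.06. Nek2, a kinase that separates centrosomes, was at 1.43 (1.251 to 1.65), and Ninl, a protein of microtubule anchoring, at 0.697 (0.512 to 0.944) from 115 and 72 reads. The abundant scaffolds Akap9 and Pcm1 were at 0.974 (0.924 to 1.03) and 0.976 (0.917 to 1.04).

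Plus end partners of TACC3 and CKAP5 were led by Kif2c again. Of the 16 genes 2 passed as higher and 0 as lower, with a median of 0.09. For this list and those that follow, the shares over all expressed genes were 7.62% as higher and 4.09% as lower. The clathrin heavy chain Cltc, which TACC3 binds, had 7010 and 7135 reads, a fold of 1.13 (1.10 to 1.17), the end-binding protein gene Mapre1 was at 1.06 (1.01 to 1.10), and Tacc1, a relative of Tacc3, at 0.920 (0.732 to 1.15). In the list of the anaphase-promoting complex, the ubiquitin ligase that marks Aurora A, TPX2 and PLK1 for destruction, 3 of 18 genes passed as higher and 0 as lower, with a median of 0.02. Its activator Cdc20 led with a fold of 1.52 (1.39 to 1.67), from 44.5 to 67.8 CPM, while the core subunits Anapc5, Anapc1 and Anapc13 were at 1.02 (0.975 to 1.07), 1.01 (0.960 to 1.06) and 0.948 (0.764 to 1.18). In the list for the transcription of late cell cycle genes, which holds factors and MuvB subunits among others, 1 of 16 passed as higher and 0 as lower, with a median of 0.06. That gene was the MuvB subunit Lin9, at 1.34 (1.13 to 1.58), and E2f4 was lowest at 0.854 (0.796 to 0.917). Tfdp1 and Rbbp4, the most abundant, were at 0.974 (0.927 to 1.02) and 1.02 (0.969 to 1.08).

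The lists set beside them for comparison lay near the median of all genes. Here too 7.62% of expressed genes passing as higher and 4.09% as lower are the shares to compare with. Of 28 genes of the G1/S transition and DNA replication 1 passed as higher and 0 as lower, with a median of 0.00. It was the ribonucleotide reductase subunit Rrm2, at 1.30 (1.24 to 1.36), while Rrm1 was at 1.08 (1.04 to 1.11), the helicase subunit Mcm6 at 0.932 (0.896 to 0.969) and the DNA repair glycosylase Ung at 0.815 (0.716 to 0.926). Of 11 expressed tubulin genes 1 passed as higher and 0 as lower, again with a median of 0.00. Tuba8 was at 1.36 (1.14 to 1.63), Tuba1a at 0.827 (0.796 to 0.859), and the abundant Tuba1b and Tubb5 at 0.961 (0.944 to 0.979) and 0.987 (0.969 to 1.01). Some tubulin genes are near-identical to each other and can share reads, so single values in this list are uncertain. Shared sequence among tubulin genes was not searched. Whether the members differed from these lists was not tested, since genes are not replicates.

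**Figure D5:**
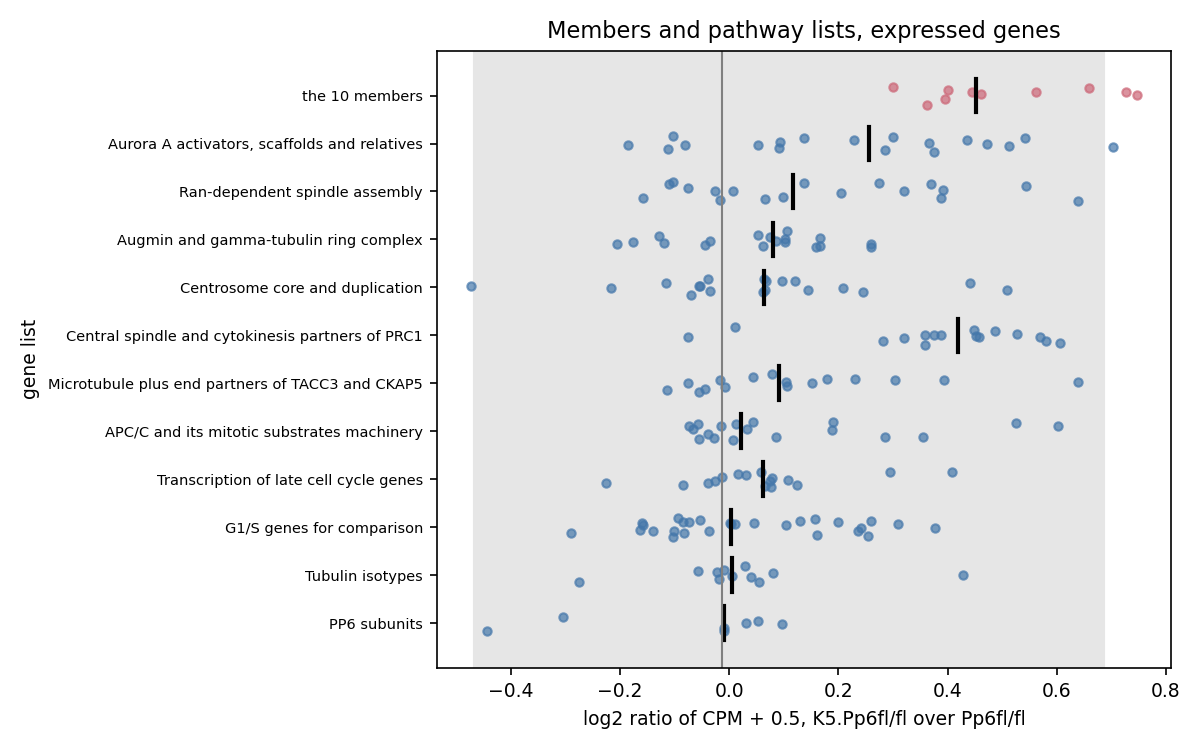
Log2 ratios (CPM + 0.5, K5.Pp6fl/fl over Pp6fl/fl) of the expressed genes of each list, 1 point per gene, with the median as a black bar; the grey band holds the middle 95% of all expressed genes (-0.47 to 0.69) and the grey line their median. The members (red, median 0.45) and the partners of PRC1 (median 0.42) lie furthest right, and the G1/S and tubulin lists have a median of 0.00.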

How the data were processed

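RNA from 1 Pp6fl/fl and 1 K5.Pp6fl/fl culture was extracted with Trizol, captured with oligo(dT) and made into libraries with a kit that does not mark strand, per the labels' protocols. The submitters' processing notes list RSEM, edgeR and the build mm8 with no version or role; aligner and annotation: not given in the sources used here. Expected counts deposited by the authors had been multiplied by 1 constant per library. Once divided by it, 97.4% of values under 100 reads in each library were whole within 0.01 reads; the design had assumed unscaled counts. FPKM, log2 fold changes, p-values and FDR were deposited by the authors and are used as such where named.

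Counts were rounded and scaled with TMM factors (edgeR 4.0.16, R 4.3.3) of 0.999 (Pp6fl/fl) and 1.00 (K5.Pp6fl/fl). Folds have Clopper-Pearson conditional intervals, and ratios of folds have exact conditional intervals (scipy 1.17.1). Without molecular identifiers, reads are not independent molecules. Symbols were matched for 47219 of 47719 gene IDs. Shared sequence was searched with blastn 2.17.0. The fold and interval script was tested on simulated counts that held counting error alone. That test cannot show how the intervals would fare with differences between cultures. Grouping followed the genotype label. All 10 members are named; in each list the highest and lowest ratio and the 2 most abundant genes are, and exceptions are said to be so. Members and lists were chosen with earlier results of these data known. Alternatives were other scalings (among them DESeq2 1.42.0 size factors), pseudocounts, floors, folds and FPKM. Gene coordinates are not given because mm8 differs from the reference; those of promoters belong to the RefSeq table.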

Additional observations from a re-analysis of the deposited data

How the results depend on the processing

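All 10 members kept a log2 ratio above 0 in the main setting and the 7 alternatives that change a ratio: library totals, DESeq2 size factors, pseudocounts of 0.1 and 2 CPM, FPKM, sums with overlapping genes, and the deposited columns scaled by their own sums. The last 2 of these were chosen after seeing the data. The number past the 25% rule stayed at 9 under all of them for which it was counted except the sums with overlapping genes, where it was 8. Among 175 other spindle, cell cycle and tubulin genes 32 were past the 25% rule as higher and 1 as lower, against 7.62% and 4.09% of expressed genes. At 1.5-fold the count of members past the rule as higher was 3, and of the 175 genes 4 were higher and 0 lower, with at most 1 in any list, against 3.47% and 1.26% of expressed genes. At 2-fold the counts were 0 members, 0 of the 175 higher and 0 lower, against 0.811% and 0.195% of expressed genes. By FPKM the members' median log2 ratio was 0.42 in place of 0.45, and that of Ppp6c was -0.85 in place of -0.44. Of the 175 genes 37 were higher in place of 32, and 2 lower in place of 1. By FPKM, without an interval, 12.1% of genes were past the rule as higher and 9.35% as lower. Genes past the rule as higher numbered 5 in place of 2 in the centrosome list and 2 in place of 1 in the G1/S list. They numbered 1 in place of 0 in the augmin list, 8 in place of 7 in the Aurora A list and 6 in place of 5 in the Ran list. In the APC/C list they numbered 2 in place of 3. The medians of 5 lists that lay near 0 changed sign (centrosome 0.06 to -0.0097, APC/C 0.023 to -0.0025, G1/S 0.0025 to -0.015, tubulins 0.0048 to -0.00055 and PP6 subunits -0.0094 to 0.029). FPKM divides by an effective length that can differ between libraries and uses no counting interval; the cause of these differences was not tested. No paired analysis was possible because each genotype has 1 library, and for the same reason no replicate could be left out. Depth limits Bora most, with 274 and 319 reads.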
